A study of Mus musculus with 12 samples.

Results

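The genes described here are 38 skeletal muscle genes, most of them encoding sarcomere proteins, proteins of the membrane system that couples excitation to contraction, or proteins of the neuromuscular junction. They were listed by symbol, as a check for muscle in dissected embryonic kidneys, and earlier results on the same arrays, with null over wild-type values among them, were known when the list was drawn up. An array probe was found for 37 of the 38 genes, of 17305 genes with a named probe on the array, and *Trdn* had none. A probe well above background often enough to be tested was found for 27 of them, of 12647 tested genes.

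The study compared kidneys of *Bdkrb2* null embryos with kidneys of *Bdkrb2* wild-type (WT) embryos at embryonic day 14.5. *Bdkrb2* encodes the bradykinin B2 receptor. Both groups had a C57BL/6 background and both were progeny of heterozygous parents. Both were carried by mothers fed a high-salt diet with 5% sodium, so no group without the salt load enters these comparisons. Null and WT RNA were hybridised against each other on 12 two-colour arrays. Null RNA carried the dye Cy5 in 3 replicates, labelled null/WT, and Cy3 in the other 3, labelled WT/null, and each replicate was run on 2 arrays. The 3 replicate numbers fell on 3 slides, each with both orientations of its number. The labels do not say how many embryos made up a sample, or whether both orientations of a number held the same RNA, so the spread between them may be technical.

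A sarcomere is the repeating unit of striated muscle, in which thick filaments of myosin pull on thin filaments of actin. Troponins on the thin filament make that pull depend on calcium, and titin and nebulin act as molecular rulers. In the embryo, myogenic factors of the MyoD family switch on these genes, and embryonic and perinatal myosins come before the adult fast ones. The kidney has smooth muscle in its vessels and ureter but no skeletal muscle of its own, while muscle of the body wall lies next to it.

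Spots that the scanner software flagged as well above background are called detected. Their share ran between 40.5% and 57.8% over the null channels and between 47.8% and 59.4% over the WT channels. The first array of WT/null replicate 3 stood apart, with the widest SD of its log2 ratios, 0.37. The other arrays of slide 3 had SDs of 0.20 to 0.24, and those of slides 1 and 2 had 0.13 to 0.16. Slide 3 as a whole thus spread wider. The 2 arrays of WT/null replicate 3 correlated at 0.711, against 0.824 to 0.923 in the other replicates. They also had the lowest null shares, 40.5% and 44.2%. The *Bdkrb2* probe was detected in 0 of 12 null channels and 1 of 12 WT channels and checked nothing. *Xist* was detected in 4 of 4 null channels on each slide, and in 4, 0 and 0 WT channels on slides 1, 2 and 3. The Y-linked gene *Ddx3y* was so in 0 null channels on each slide, and in 0, 4 and 4 WT channels. Sex and genotype therefore cannot be told apart on slides 2 and 3. The 16 kidney genes listed, among them *Six2*, *Wt1*, *Pax2* and *Nphs1*, all had a probe, and 15 were bright enough to be tested.

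Probes for genes of embryonic muscle were detected in both genotypes, while the adult fast myosins were at or near background. Of the 37 genes with a probe, 15 were detected in all 24 channels, including *Myh3*, *Myh7*, *Myl1*, *Mylpf*, both fast and slow troponins, and *Cdh15*. *Myog* was so in 11 of 12 null channels and 12 of 12 WT channels. *Myod1* reached 5 null and 2 WT channels and *Myf6* 1 null and 0 WT channels, and *Myf5* and *Musk* reached none. The creatine kinase gene *Ckm* reached 1 null and 0 WT channels, and nebulin (*Neb*) 3 null and 0 WT channels. Outside the 38 genes, the adult fast myosins *Myh2* and *Myh4* reached no channel and *Myh1* 1 WT channel, and the muscle stem cell gene *Pax7* reached 1 channel of each genotype. Other genes of fast fibres were not at background: *Actn3*, *Tnni2* and *Tnnt3*, and outside the 38 genes the calcium pump *Atp2a1*, were detected in 12 of 12 channels of each genotype. By detection, the name of the group thus fits the embryonic contractile genes, but not the early myogenic factors, which were at or near background. Which cells gave these signals was not tested.

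**Figure D1:**
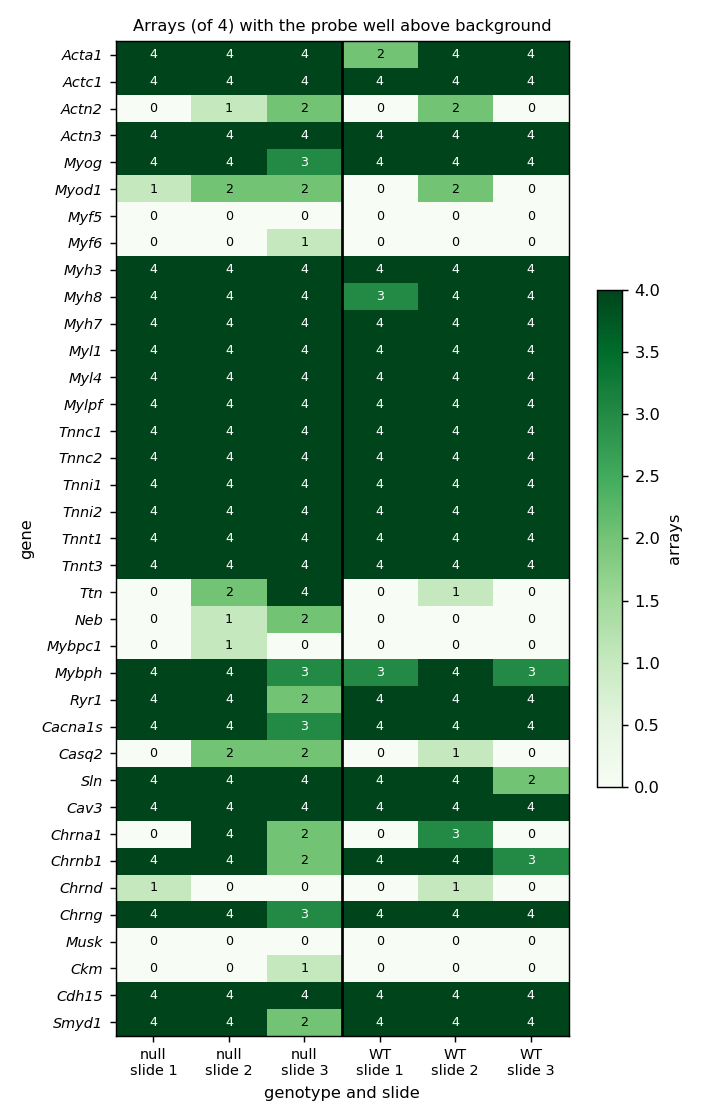
Number of arrays, of 4 per slide and genotype, on which the brightest probe of each of the 37 muscle genes was detected, with the null channels in the left columns and the WT channels in the right columns. Most contractile genes were detected in every channel, *Myf5* and *Musk* in none, and titin (*Ttn*) on slide 3 in 4 of 4 null and 0 of 4 WT channels.

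The filter asked for a probe detected on at least 6 of the 12 arrays in the null or the WT channels. *Ttn* with 6 null and 1 WT channels and *Chrna1* with 6 null and 3 WT channels lay just inside it, and *Myod1* with 5 and 2 and *Casq2* with 4 and 1 just outside. Both genes just inside passed through the null channels alone, so counts over the 27 tested genes do not stand for all 38. The 10 genes with a probe that were not tested were *Actn2*, *Myod1*, *Myf5*, *Myf6*, *Neb*, *Mybpc1*, *Casq2*, *Chrnd*, *Musk* and *Ckm*. Where 9 tested genes had several tested probes, 7 had the same sign on all of them, and the probes of *Tnni1* and *Ryr1* differed in sign, with values close to 0.

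Null over WT, as a log2 ratio, is a description here, since such values had a part in choosing the genes. Of the 27 tested genes, 24 stood higher in null kidneys and 3 lower, where 44.1% of all tested probes stood higher. The median over the 27 was 0.25, with single genes between -0.19 (*Actn3*) and 1.16 (*Myh3*). None passed the limma test at an adjusted p under 0.05, and 15 had an unadjusted p under 0.05. Over all 22979 tested probes, 9 passed (0.0392%) and 7.01% had an unadjusted p under 0.05. A fit with the replicate number as a block called 0 of the 27 genes and 0.0174% of all probes. The values were above 0 in all 6 replicates for 9 of the 27 genes and below 0 in all 6 for 0, against 1.5% and 1.42% of all probes. Nothing is read from these counts. In bulk RNA such as this, a different number of muscle cells and a different amount of RNA per muscle cell cannot be told apart.

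As a set, the 27 genes differed more between slides than between dyes. Their median was 0.01, 0.12 and 0.66 on slides 1, 2 and 3, while the median of all tested probes stayed within 0.026 of 0. On slide 3 alone it was 0.77 in the null/WT orientation and 0.54 in the WT/null orientation. On slide 1 these were 0.01 and 0.03, and on slide 2 they were 0.11 and 0.14. For 14 of the 27 genes, the slide 3 mean exceeded both other slides by more than the gap between orientations on slide 3. That gap had a median of 0.29 over the 27 genes. The number of the 27 genes above 0 was 15, 22 and 23 on slides 1, 2 and 3. The value was highest on slide 3 for 22 of the 27, against 34.1% of all tested probes. A log2 ratio over 1, a 2-fold difference, was reached by 7 of the 27 genes on slide 3, and by 0 on slides 1 and 2. Of all tested probes, 0.257% exceeded it on slide 3. The offset of 50 added to the intensities makes ratios of dim probes smaller. The scanner's processed signals have no such offset. With them, 16 of the 27 genes exceeded 1 on slide 3, 2 on slide 2 and 0 on slide 1. The share of all probes over 1 was not computed on that scale. The 0.257% above does not apply to these counts. The medians of the 27 genes on slides 1, 2 and 3 were 0.03, 0.18 and 1.28 with the processed signals. The mean over all 6 replicates was over 1.5 times as large with those signals, in the same direction, for 15 of the 27 genes, so the folds below hold for the scale with the offset.

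**Figure D2:**
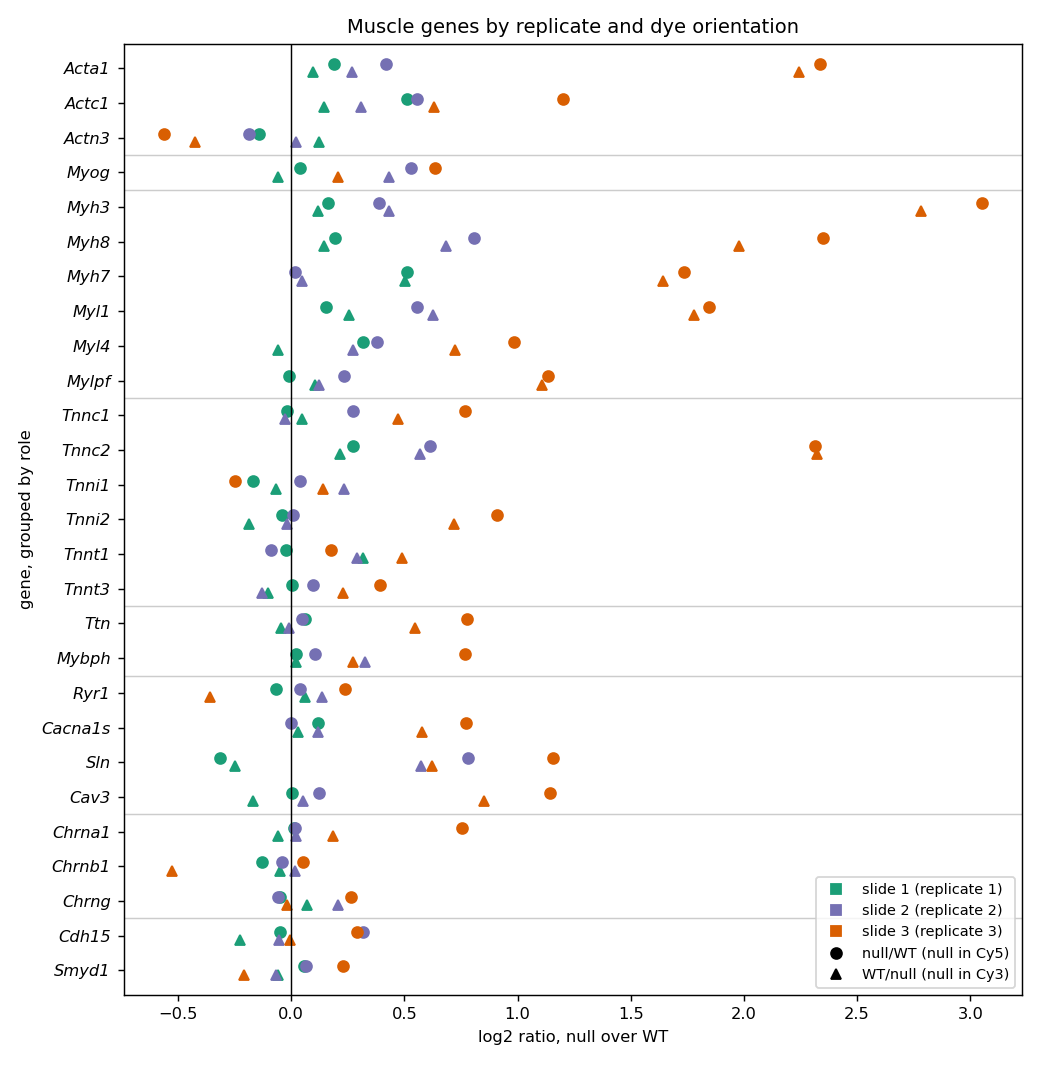
Log2 ratio of null over WT for the 27 tested muscle genes, one point per replicate (mean of 2 arrays), with slides in colour and the dye orientation as the marker, and genes grouped by role. The slide 3 points of *Myh3*, *Tnnc2*, *Acta1*, *Myh8*, *Myl1*, *Myh7* and *Mylpf* lie above 1 in both orientations, and all their slide 1 and slide 2 points lie below 1.

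Myosin chains, the motor proteins of the thick filament, held the highest ratios of any role. *Myh3*, the embryonic myosin heavy chain (probe A_51_P167668, chromosome 11), had ratios of 0.16, 0.39 and 3.05 in null/WT replicates 1, 2 and 3 and of 0.12, 0.43 and 2.78 in WT/null replicates 1, 2 and 3. Both slide 3 values lay far above the other 4, which did not exceed 0.43. The mean was 1.16 ± 1.37 (SD, n = 6), and on slide 3 the null signal was 7.55 times the WT signal. With the processed signals the mean was 1.80 and the slide 3 fold 16.6. *Myh8*, the perinatal heavy chain, had 0.19, 0.81 and 2.35 in null/WT and 0.14, 0.68 and 1.98 in WT/null. Here slide 2 also stood above slide 1 in both orientations, with slide 3 above both, at 4.48-fold (8.65-fold with the processed signals). *Myh7*, the slow and cardiac beta heavy chain, had 0.51, 0.02 and 1.73 in null/WT and 0.50, 0.05 and 1.64 in WT/null, so that slide 2 was its lowest.

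The myosin light chains also had their highest ratios on slide 3, where *Myl1* stood between the heavy chains *Myh8* and *Myh7*. *Myl1*, the fast alkali light chain, had 0.15, 0.56 and 1.85 in null/WT and 0.26, 0.63 and 1.78 in WT/null. *Mylpf*, the fast regulatory light chain, had -0.01, 0.23 and 1.13 in null/WT and 0.10, 0.12 and 1.11 in WT/null. *Myl4*, a light chain of embryonic muscle and of the atria, had 0.32, 0.38 and 0.99 in null/WT and -0.06, 0.27 and 0.72 in WT/null. In all 6 myosin genes the 2 slide 3 values exceeded the other 4, and the role's median was 0.15, 0.37 and 1.75 on slides 1, 2 and 3.

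Of the troponins, the fast calcium-binding subunit had the highest ratio and the slow inhibitory subunit none to speak of. *Tnnc2*, fast troponin C, had 0.27, 0.61 and 2.31 in null/WT and 0.22, 0.57 and 2.32 in WT/null (mean 1.05 ± 0.99, SD, n = 6). Its orientations were close to each other on every slide. *Tnni2*, fast troponin I, had -0.04, 0.01 and 0.91 in null/WT and -0.19, -0.02 and 0.72 in WT/null, so it stood above 0.01 on slide 3 alone. *Tnnc1*, the slow and cardiac troponin C, had a slide mean of 0.62 on slide 3 and *Tnnt3*, fast troponin T, one of 0.31. *Tnnt1*, slow troponin T, had slide means of 0.15, 0.10 and 0.33, and *Tnni1*, slow troponin I, had -0.12, 0.14 and -0.05. The slide 3 means of the fast subunits were 2.32, 0.81 and 0.31, and those of the slow ones 0.62, 0.33 and -0.05, so the 2 sets overlapped.

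Among the actins and their crosslinkers the genes went different ways. *Acta1*, skeletal alpha-actin (probe A_51_P246854, chromosome 8), had 0.19, 0.42 and 2.34 in null/WT and 0.09, 0.27 and 2.24 in WT/null, and was 4.89-fold higher in null on slide 3 (12.5-fold with the processed signals). *Actc1*, cardiac alpha-actin, which embryonic skeletal muscle also uses, had 0.51, 0.56 and 1.20 in null/WT and 0.14, 0.31 and 0.63 in WT/null. It stood above 0 in all 6 replicates. Of the 38 genes it alone passed the null over WT test under any alternative run (adjusted p = 0.0337 without slide 3, and 0.00805 with all 12 arrays and a duplicate correlation, both by limma). Those 2 settings called 0.27% and 0.648% of all probes. With the replicate number as a block its adjusted p was 0.904 (limma). Values of this contrast were known when the genes were listed, and leaving out slide 3 was chosen after seeing the data. Nothing is read from these passes. *Actn3*, the alpha-actinin of fast fibres, had the lowest value on slide 3, with -0.14, -0.18 and -0.56 in null/WT and 0.12, 0.02 and -0.42 in WT/null. Its 2 slide 3 values lay below the other 4.

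*Myog*, the myogenic factor that drives terminal differentiation, was the only factor of its family with a tested probe. Its ratios were 0.04, 0.53 and 0.63 in null/WT and -0.06, 0.43 and 0.21 in WT/null. Slides 2 and 3 overlapped, and slide 1 lay near 0. The smallest ratio of slides 2 and 3 came from WT/null replicate 3, where the first array read -0.01 and the second 0.42.

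Titin is the giant protein that spans from the Z-disc to the M-line. Its brightest probe was near background except in the null channels of slide 3. Its ratios were 0.06, 0.05 and 0.78 in null/WT and -0.05, -0.01 and 0.54 in WT/null, with a mean of 0.23, against 1.01 with the processed signals. On slide 3 this *Ttn* probe was detected in 4 of 4 null and 0 of 4 WT channels, with mean log2 intensities of 7.06 in null and 6.40 in WT. Against the lowest detected signal, null was at least 1.57-fold higher there for this probe. A second tested *Ttn* probe read 0.59 in null/WT and -0.10 in WT/null on slide 3. It was detected there in 2 null and 1 WT channels, and on slide 2 in 4 null and 3 WT channels. Its ratios did not differ between replicate numbers past the threshold (limma F test, adjusted p = 0.564). The remaining *Ttn* probes were detected in no channel. *Mybph*, a myosin-binding protein, had slide means of 0.02, 0.21 and 0.52.

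The genes of excitation-contraction coupling divided. *Cav3*, muscle caveolin, had 0.00, 0.12 and 1.14 in null/WT and -0.17, 0.05 and 0.85 in WT/null. *Sln*, which encodes sarcolipin, a small inhibitor of the calcium pump, had -0.31, 0.78 and 1.16 in null/WT and -0.25, 0.57 and 0.62 in WT/null. *Sln* was thus below 0 on slide 1 in both orientations and above 0.5 on slides 2 and 3. *Cacna1s*, the voltage sensor of the transverse tubule, had slide means of 0.07, 0.06 and 0.67. *Ryr1*, the calcium release channel it opens, had 0.00, 0.09 and -0.06, with slide 3 values of 0.24 in null/WT and -0.36 in WT/null on either side of 0.

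Genes of the neuromuscular junction and the remaining 2 genes had the lowest medians of any role on slide 3, at 0.12 and 0.08. The acetylcholine receptor subunits *Chrna1*, *Chrnb1* and *Chrng*, the last one the fetal subunit, had slide 3 means of 0.47, -0.24 and 0.12. Their orientations disagreed there: *Chrna1* read 0.75 in null/WT and 0.19 in WT/null, and *Chrnb1* 0.05 and -0.53. *Cdh15*, which encodes M-cadherin of muscle cell contacts, had slide means of -0.14, 0.13 and 0.14, and *Smyd1*, a muscle histone methyltransferase, had 0.23 in null/WT and -0.21 in WT/null on slide 3. Of these 5 genes only *Chrna1* lay above 0 in both orientations there.

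The levels by channel show on which side the slide 3 ratios arose. Levels are log2 intensities after normalization within and between arrays, given per slide as the mean of 4 arrays. They are compared only within one probe, apart from the sums of whole lists further below. *Myh3* stood at 6.72, 7.53 and 9.99 in null kidneys and at 6.58, 7.12 and 7.07 in WT kidneys on slides 1, 2 and 3. *Tnnc2* stood at 7.44, 8.49 and 9.97 in null and at 7.20, 7.90 and 7.66 in WT. *Acta1* stood at 6.62, 7.21 and 9.18 in null and at 6.48, 6.87 and 6.89 in WT. In these genes the WT channels of slides 2 and 3 were close, and the null channel of slide 3 was far above every other channel.

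The null channel of slide 3 was the highest of the 6 genotype and slide levels for 20 of the 27 genes, against 10.8% of all tested probes. The null levels spread wider over the slides than the WT levels for 24 of the 27 genes, where 43.2% of all probes did so. The median spread over the 3 slides was 0.70 in null and 0.29 in WT. *Actn3* was an exception in pattern: it stood at 10.15, 9.33 and 9.62 in null and at 10.16, 9.41 and 10.12 in WT, so both genotypes were low on slide 2 and null alone was lower on slide 3.

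**Figure D3:**
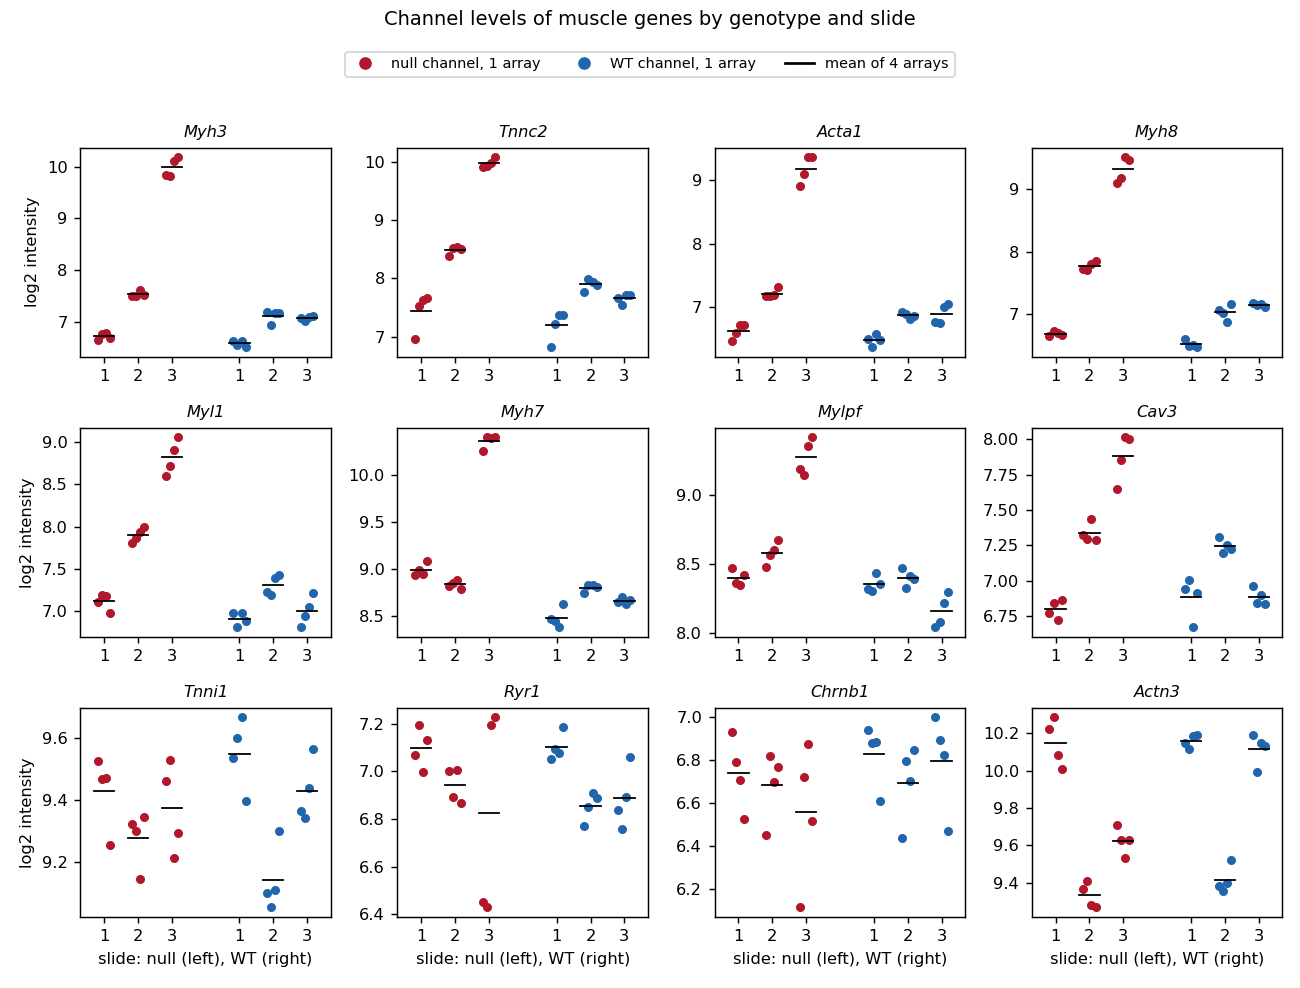
Normalised log2 intensity of 12 muscle genes by slide, with null channels on the left and WT channels on the right of each panel, one point per array and a line at the mean of the 4 arrays. The 8 genes with the highest and the 4 with the lowest slide 3 ratios are shown, and in the first 8 the null channels of slide 3 lie above all other channels.

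The test of the dye, which the choice of genes did not use, called none of them. The dye term is positive where the ratio was higher with null in Cy5 and gives the distance of each orientation from the mean of both. It passed for 0 of the 27 genes by limma (adjusted p under 0.05), of which the nearest was *Tnnt1* at -0.17 (adjusted p = 0.0589), against 13.5% of all tested probes. The dye term had a median size of 0.08 over the 27 genes and also 0.08 over all tested probes. Its fit had no term for the slide, so differences between slides widened its standard error (SE). That SE was 0.44 for *Myh3* and 0.34 for *Acta1*. The median SE of null over WT, from the same fit, was 0.051 over all tested probes. Genes that differed widely between slides could thus hardly pass, and nothing is read from the 0. Over the 27 genes, the 2 orientations of a slide correlated at 0.596, 0.760 and 0.956 on slides 1, 2 and 3. Those orientations share a slide and perhaps the RNA, and the genes are not independent replicates. The slide means correlated at 0.23 between slides 1 and 2, at 0.56 between slides 1 and 3, and at 0.65 between slides 2 and 3.

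A test of whether null over WT differed between the replicate numbers passed for 11 of the 27 genes (limma moderated F test, adjusted p under 0.05), against 1.48% of all tested probes. An unadjusted p under 0.05 was reached by 20 of the 27 genes and 18.9% of all probes. The 11 were *Acta1*, *Myh3*, *Myh8*, *Myh7*, *Myl1*, *Mylpf*, *Tnnc2*, *Tnni2*, *Ttn* (by 1 of its 2 tested probes), *Sln* and *Cav3*. The test uses the same ratios that were known when the genes were listed, so the count is a description. *Myh3* and *Tnnc2* (adjusted p = 0.00093 and 0.000982) passed in all 17 settings of this test. Those settings called between 0.148% and 49.8% of all probes. Without slides 1, 2 and 3 in turn, 4, 9 and 9 genes passed, against 0.148%, 0.457% and 5.97% of all probes. With the array that stood apart left out, 20 genes passed, against 6.74% of all probes. The median null over WT of the 27 genes was 0.07 without slide 3, against 0.37 without slide 1 and 0.32 without slide 2. Between 2 of the 27 genes the ratios over the 6 replicates correlated at a median of 0.57 over 351 pairs, with 84 pairs above 0.9, and the lowest was -0.98.

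The promoters of the genes with the highest slide 3 ratios are shown because E-boxes, the sites that MyoD family factors such as myogenin bind, are a known feature of muscle promoters. RefSeq (GRCm38.p6) gave the sequence from 250 bases before to 50 bases after the start for 29 of the 38 genes. Each is written 5′ to 3′ on the strand of the gene, with E-boxes (CANNTG, the same letters on both strands) in capitals. The genes are the 3 with the highest slide 3 ratio, and *Myog*, the one myogenic factor with a tested probe.
*Myh3*, chr11:67078050-67078349, plus strand: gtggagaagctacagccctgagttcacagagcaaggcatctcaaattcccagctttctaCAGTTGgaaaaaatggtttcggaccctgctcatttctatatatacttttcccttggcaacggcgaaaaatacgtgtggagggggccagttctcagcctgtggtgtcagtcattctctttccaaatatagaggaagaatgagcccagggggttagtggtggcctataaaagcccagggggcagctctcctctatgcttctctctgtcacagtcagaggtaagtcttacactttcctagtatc
*Tnnc2*, chr2:164779685-164779984, minus strand: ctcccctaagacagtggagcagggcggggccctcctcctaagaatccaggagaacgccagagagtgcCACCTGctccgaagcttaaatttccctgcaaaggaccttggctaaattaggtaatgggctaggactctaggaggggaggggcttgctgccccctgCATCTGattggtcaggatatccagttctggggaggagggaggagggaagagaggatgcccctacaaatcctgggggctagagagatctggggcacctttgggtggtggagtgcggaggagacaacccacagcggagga
*Acta1*, chr8:123894726-123895025, minus strand: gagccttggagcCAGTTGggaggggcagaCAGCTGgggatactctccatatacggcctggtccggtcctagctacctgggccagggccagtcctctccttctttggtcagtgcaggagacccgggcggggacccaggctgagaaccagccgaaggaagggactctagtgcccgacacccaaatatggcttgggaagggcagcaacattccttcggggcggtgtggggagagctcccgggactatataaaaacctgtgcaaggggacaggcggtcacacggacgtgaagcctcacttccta
*Myog*, chr1:134289754-134290053, plus strand: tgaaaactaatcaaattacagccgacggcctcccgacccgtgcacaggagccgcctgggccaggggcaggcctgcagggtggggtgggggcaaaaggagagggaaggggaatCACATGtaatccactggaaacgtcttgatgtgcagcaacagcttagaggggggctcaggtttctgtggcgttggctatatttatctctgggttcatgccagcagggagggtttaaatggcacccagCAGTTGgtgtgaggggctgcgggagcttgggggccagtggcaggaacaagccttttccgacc

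An E-box of the letters CANNTG was present in 20 of the 23 tested genes with a promoter sequence, and in all 7 genes over 2-fold on slide 3, against 72.1% of 27025 promoters of the same length. The narrower form CAGCTG, which is one of the CANNTG sites, was present in 9 of the 23, 3 of the 7 and 16.1% of all. The letters TATAAA, searched on both strands, were present in 9 of the 23, 4 of the 7 and 14.2% of all. A MEF2 site, bound by factors that act with the MyoD family, was found in 2 of the 23, 1 of the 7 and 1.89% of all, and a CArG box, bound by serum response factor, in 2 of the 23, 1 of the 7 and 1.57% of all. *Acta1* held an E-box of the CAGCTG form, a TATAAA and a CArG box in this window. These matches describe letters only.

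Other skeletal muscle genes did not share the slide 3 ratios in their median, though single genes stood higher there. Of 72 further muscle genes with a probe, 49 were tested, 29 of them higher and 20 lower, where 44.1% of all tested probes stood higher. The 49 had a median of 0.02 (0.01, 0.00 and 0.05 on slides 1, 2 and 3). The brightest were *Tpm3* at -0.07, *Tpm2* at 0.00, *Tpm1* at 0.04, *Eno3* at -0.14, *Fhl1* at 0.07 and *Pfkm* at 0.02, genes that many other cell types also express. None of the 49 passed the null over WT test or exceeded 1 on slide 3. The test between replicate numbers passed for 2 of them, against 1.48% of all tested probes. *Myom2*, an M-band protein, had slide means of 0.13, -0.10 and 0.92, and *Hspb2* had 0.01, 0.14 and 0.68. Next highest of the tested genes on slide 3 were *Lmod3* (0.65), *Cryab* (0.56) and *Apobec2* (0.52). The lowest there were *Des* (-0.41), *Jph2* (-0.36) and *Ankrd23* (-0.31). All of these, from *Myom2* on, were chosen here after their values were seen. In 16 of the 72 no channel was detected, among them *Casq1*, *Myh2*, *Myh4*, *Ckmt2* and *Klhl41*. Intensities of the list were also summed over its probes on a linear scale. The sum ran between 93861 and 97929 over the null slides and between 94212 and 99667 over the WT slides. The brightest probes, here those of the brightest genes named above, make up most of such a sum. It therefore says little about the dimmer genes, and the same limit applies to the sums of the lists below.

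Markers of other tissues next to the kidney were set beside the muscle genes. None of their genes passed the null over WT test, and none exceeded 1 on slide 3. Smooth muscle genes were higher in 10 of 11, where 44.1% of all tested probes stood higher. These 11 genes had a median of 0.20, and medians of 0.15, 0.13 and 0.30 on slides 1, 2 and 3. Their summed intensity was 31558 in null and 23084 in WT on slide 3, against 23500.2 and 21556 on slide 1 and 28418 and 25576 on slide 2, and no marker of that list was at background. The brightest were *Mylk* at 0.27 ± 0.04 (SE), *Acta2* at 0.22 ± 0.09 and *Tagln* at 0.32 ± 0.13. *Tagln* (0.03, 0.14 and 0.81) and *Cnn1* (0.59, 0.05 and 1.00) differed between replicate numbers past the threshold, as did 1.48% of all tested probes. The part of smooth muscle in the values of the genes it shares with skeletal muscle was not tested.

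Heart, cartilage and muscle progenitor lists did not follow slide 3. Heart genes had a median of -0.07 on slide 3 over 7 tested genes of 15, with *Myl7* at -0.26, *Tnni3* at -0.07 and *Tnnt2* at 0.63 there, while *Gata4*, *Tbx5*, *Ryr2* and *Pln* were at background in every channel. Their summed intensity ran between 1645 and 1884 over the null slides and between 1619 and 1927 over the WT slides. Muscle progenitor genes had a slide 3 median of -0.01 over 10 tested genes of 13, and *Pax3* was at background in every channel. Their sum ran between 38414 and 40115 in null and between 36574 and 39122 in WT. Cartilage and bone genes had a slide 3 median of -0.04 over 13 tested genes of 18. Of the brightest, *Col11a1* and *Sox9* stood at 0.11 and 0.08 on slide 3. *Col2a1* stood at 0.34, 0.09 and -0.55 on slides 1, 2 and 3, and differed between replicate numbers past the threshold. *Col10a1*, *Runx2* and *Ibsp* were at background in every channel, and the list's sum ran between 7589.5 and 8741 in null and between 7336 and 8513 in WT.

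Tendon, nerve and skin lists held few bright genes. Their slide 3 medians were -0.03 over 6 tendon and fascia genes, -0.17 over 5 nerve and glia genes and 0.01 over 7 skin genes. The tendon markers *Tnmd* and *Kera* were at background in every channel, as were *Chat*, *Isl1*, *Mnx1* and *Th* among the nerve markers, and the skin marker *Dsg3*. The summed intensity ran between 9711 and 9845 in null and between 9868 and 10052.5 in WT for tendon and fascia. For skin it ran between 1334 and 1444 in null and between 1363 and 1415 in WT.

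Some genes of the kidney itself also had their highest ratio on slide 3. Of the 15 tested kidney genes 7 did so, against 34.1% of all tested probes, and nothing is read from that count. The slide 3 median of the 15 was -0.03. *Lrp2*, the endocytic receptor megalin of the proximal tubule, had slide means of 0.30, 0.62 and 0.91, and null over WT of 0.61 ± 0.10 (SE), above that of most of the 27 muscle genes. *Umod*, which encodes uromodulin of the thick ascending limb, had -0.01, 0.08 and 0.88, *Nphs1*, which encodes nephrin of the podocyte, 0.02, 0.12 and 0.46, and *Cdh16*, an epithelial cadherin, 0.00, 0.06 and 0.41. These 4, chosen here after their values were seen apart from *Cdh16*, were the kidney genes over 0.4 on slide 3. *Umod* alone of the list differed between replicate numbers past the threshold. In contrast *Six2* and *Cited1*, genes of nephron progenitors, stood at -0.24 and -0.19 on slide 3, *Six2* chosen here after its value was seen. *Foxd1*, among the brightest of the list, stood at 0.06 there. The summed intensity of the list ran between 52545 and 62592 over the null slides and between 52905 and 60505 over the WT slides. The part of nephron genes in the muscle values was not tested.

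**Figure D4:**
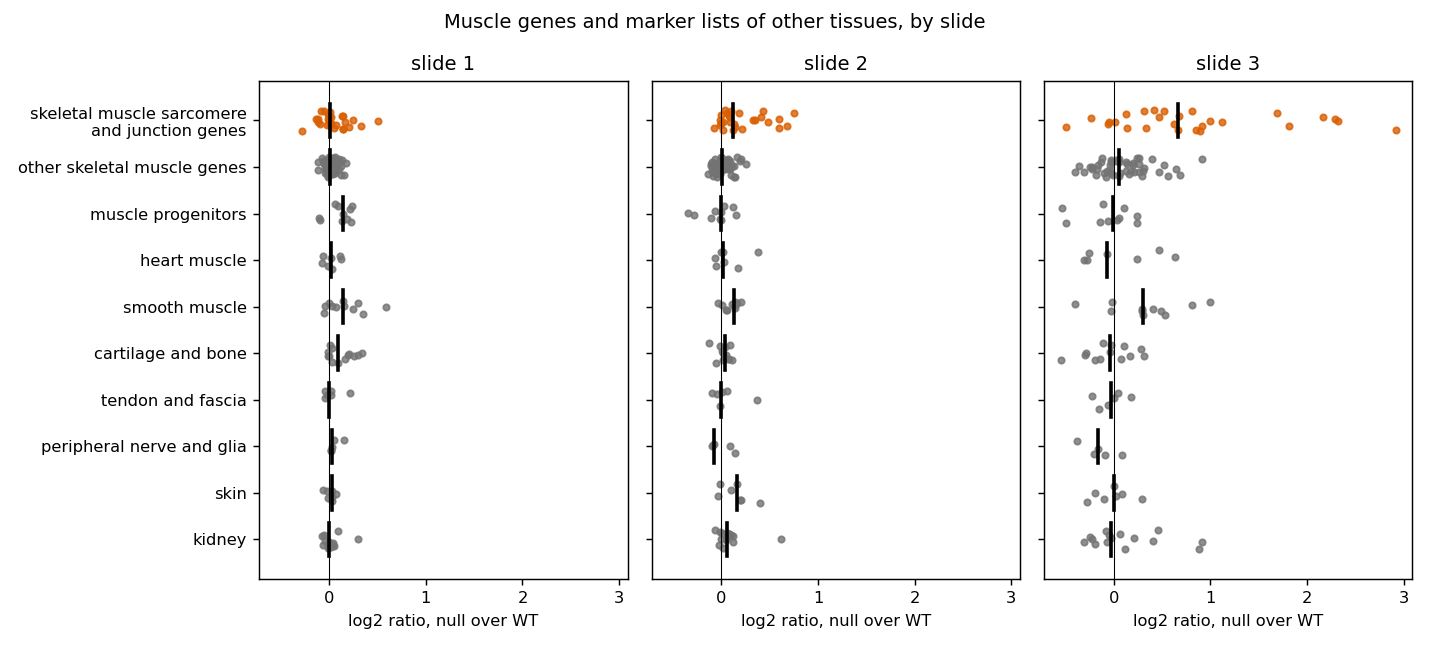
Log2 ratio of null over WT by slide for the 27 muscle genes (top row, orange) and for marker lists of other tissues (grey), one point per tested gene at its slide mean, with a black bar at each list's median. Ratios over 1 appear on slide 3 in the muscle genes alone among these lists, the nearest other gene being *Cnn1* of smooth muscle at 0.998, and the median of the smooth muscle list on slide 3 is 0.30.

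The 10 genes outside all lists that followed the median of the 27 genes most closely over the 6 replicates were mostly not muscle genes. Likeness was Pearson's r over the 6 values among 1161 genes with an SD of at least 0.3, and the 6 values share slides and arrays. *Slc22a13*, an organic ion transporter, had an r of 0.993 and slide means of -0.06, 0.26 and 1.31. *Cox6a2*, the heart and skeletal muscle form of a cytochrome c oxidase subunit, also had an r of 0.993 and slide means of -0.02, 0.08 and 1.01. The others were *Clic5*, *Cldn2*, *Ugt1a6b*, *Gsta1*, *Ttc36*, *Gsdmc3*, *Spp2* and *Tinag*, with r between 0.983 and 0.989 and slide 3 means between 0.58 and 1.53. *Cldn2*, a claudin of the proximal tubule, had slide means of -0.22, -0.04 and 0.61, and *Spp2* had the highest slide 3 mean of the 10. Of the 10, *Cox6a2* is the one known as a muscle gene, and none passed the null over WT test.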

How the data were processed

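Transcript levels were measured on 12 two-colour arrays of embryonic kidney RNA. The deposited files gave each spot and its local background as a median pixel intensity for either dye, per the file headers. The deposited files also held the scanner software's processed signals and log10 ratios of Cy5 over Cy3 (per the file headers from Feature Extraction 10.5.1.1, and from version 6.1 per the submitters' processing notes). The series value table held the authors' log10 ratios, turned to null over WT (r with the scanner's ratios between 0.998 and 0.999 in size). Column medians ranged from -0.0218 to 0.00645, and the rule for its blank entries stays unknown. All its columns had a sample (0 without).

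Log2 ratios were computed from the deposited median intensities with limma 3.58.1 in R 4.3.3: normexp with an offset of 50, then loess within arrays. Control and outlier spots (101 to 262 per array) were left out, and the 43379 spots gave 41174 probes. The offset compresses ratios of dim probes. Ratios were turned to null over WT and the 2 arrays of a replicate averaged. Tested probes (22979) were well above background on at least 6 of 12 arrays in the null or the WT channels. Symbols came from a RefSeq table of GRCm38.p6 (25097 probes matched). Probes are given with their chromosome only, since the header's build is mm9. Each gene is given by its brightest tested probe, or its brightest probe where none was tested.

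The fit had terms for genotype and dye, with Benjamini-Hochberg adjustment over all tested probes at 0.05. A fit with the replicate number as a 3-level factor tested differences between numbers. Levels came from the same ratios with Aquantile scaling between arrays. Each slide held both orientations of 1 number, and deviations from the orientation means correlated within numbers at 0.587, 0.517 and 0.413, so the number was also fitted as a block. The number of arrays limits the precision. If both orientations held the same RNA, only 3 samples per genotype were independent, and p-values without the block are then too small.

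The genes, the lists and the tests were chosen with earlier results of these data known. Every gene of the set with a probe could be named. From other lists the brightest 3 were to be named (6 of other muscle genes). This was done in full only for the other muscle, smooth muscle, heart, cartilage and kidney lists. Further genes of the lists were named after their values or detection were seen. Beyond the lists, the 10 genes most like the set's median were named, with an SD of at least 0.3. Some genes of the nerve list are not reported here. The tests were checked on simulated data. The alternatives tried were the scaling, the filter, the probe rule, single replicates, slides or arrays left out, and a duplicate correlation.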

Additional observations from a re-analysis of the deposited data

Results flagged for a closer look

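Among the 27 tested genes, 2 had a replicate far from the other 5, where chance alone gives about 1 in 20. *Chrna1* stood at 0.753 in null/WT replicate 3, with the other 5 replicates between -0.06 and 0.19. *Chrnb1* stood at -0.527 in WT/null replicate 3, with the other 5 between -0.13 and 0.05, and its 2 arrays there read -0.88 and -0.17. Both outlying replicates lie on slide 3, and both probes were detected in 2 of 4 null channels there.

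The ratio of null over WT differed between replicate numbers past the threshold in 11 genes (limma F test, adjusted over all 22979 probes). The adjusted p was 0.00093 for *Acta1* and *Myh3*, 0.000982 for *Tnnc2*, 0.00227 for *Myh7*, and 0.00302 for *Myh8* and *Myl1*. It was 0.0129 for *Mylpf* and *Cav3*, 0.0161 for *Tnni2*, 0.0403 for the brightest *Ttn* probe and 0.0460 for *Sln*. In all 11 the slide 3 mean was the highest. The genes were listed with such values known, so these are descriptions, and what set slide 3 apart was not tested.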

How the results depend on the processing

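The direction of the median over the tested muscle genes was kept under every alternative run. It was 0.252 as reported, 0.634 with the scanner's processed signals and 0.628 with the series value table, neither of which adds the offset of 50, and 0.150 to 0.321 with 1 replicate left out. Median centring moved the median of all probes to 0.138, and 24 of the 27 genes lay above that. Of 473 values of single genes under alternatives, 461 moved by less than the SD between replicates and 12 by more. In 19 the sign turned, all in 7 genes. These were *Tnni1* (0.00921 to 0.160), *Smyd1* (-0.0695 to -0.000946), *Ryr1* (-0.0404 to -0.0211), *Cdh15* (-0.00309), *Tnni2* (-0.0596), *Tnnt3* (-0.0322) and *Chrna1* (-0.00252).

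Null over WT passed for 9 probes as reported and for 5 to 12 with 1 replicate left out, 4 with the replicate block, 148 with all 12 arrays and a duplicate correlation, 3 without slide 2, 62 without slide 3, and 15 when the array that stood apart (array 1 of WT/null replicate 3) was left out. It passed for 0 muscle genes, 0 also with the replicate block or 1 replicate left out. It passed for 1 (*Actc1*) with the duplicate correlation or without slide 3, where 0.648% and 0.27% of all probes passed. The block changed no other call.

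The dye term passed for 3091 probes and 0 muscle genes as reported, and for 532 to 3586 probes and 0 muscle genes with 1 replicate left out, and for 3895 probes with the array that stood apart left out. It passed for 16446 probes (71.6%) and 11 muscle genes with median centring, which leaves dye bias that varies with intensity in place. The duplicate correlation gave 4882 probes, and there were 0 without slide 1 and 0 without slide 2. It passed for 1 muscle gene (*Tnnt1*) without slide 3, with that array left out, and among probes well above background in both channels on all arrays. The shares of all probes in those settings were 16.6%, 17% and 24.6%.

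The test between replicate numbers passed for 341 probes (1.48%) and 11 muscle genes as reported. With 1 replicate left out it passed for 38 to 9922 probes (0.165% to 43.2%) and 4 to 23 muscle genes. With median centring it passed for 11447 probes (49.8%) and 21 muscle genes. The scanner's processed signals gave 134 probes (0.583%) and 5 genes, the authors' deposited ratios 132 (0.577%) and 5, and the duplicate correlation 4050 (17.7%) and 19. Leaving out slides 1, 2 and 3 in turn, it passed for 34, 105 and 1372 probes (0.148%, 0.457% and 5.97%) and 4, 9 and 9 muscle genes. With that array left out it passed for 1548 probes (6.74%) and 20 muscle genes. With no filter it passed for 171 probes (0.415%) and 9 of 37 muscle genes, and with the stricter one for 1992 probes (12.6%) and 12 of 15. The cause of these shifts was not tested. Leaving out slides or that array was chosen after seeing the data. Signals near background limit the 10 genes with a probe that were not tested.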
